A study of Mus musculus with 24 samples.

Results

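The aryl hydrocarbon receptor (AHR) pathway was followed through 7 genes, matched by symbol among the 48709 genes of the count table. They are Ahr, its dimer partners Arnt and Arnt2, the repressor Ahrr, and the AHR target genes Cyp1a1, Cyp1b1 and Tiparp. The libraries came from dissected cerebral cortex and whole blood of mouse neonates whose dams had breathed nano-sized particulate matter (nPM, from ambient air beside a freeway) or filtered air (control). There were 12 ribosome-depleted RNA-seq libraries per tissue, 3 for each sex and exposure. Exposure sessions of 5 h were held on 3 days of each week from gestational day 2 to birth, and neonates were killed at day 5. The sample labels give the strain C57BL/6J, an age of 3 to 5 days and a dose of 300 mg/m3, while the methods of the study write the dose in micrograms and name the substrain C57BL/6NJ. No genetic modification is given for either group. The 3 neonates of a sex and exposure were said to come from different litters, and the labels do not tell which cortex and blood came from 1 animal.

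In its inactive state AHR is held in the cytoplasm by a chaperone complex that includes heat shock protein 90 and p23. Ligands such as the polycyclic aromatic hydrocarbons of combustion particles release it to the nucleus, where it pairs with ARNT and binds xenobiotic response elements. Cyp1a1 and Cyp1b1 encode monooxygenases that are the classical readout of this binding, and both Ahrr and Tiparp are induced by AHR and feed back to damp it.

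The promoters of the 4 genes that AHR induces are shown because their letters can be searched for the core of the response element that AHR binds. This core is GCGTG, searched on both strands, and capitals mark each match. The sequences are RefSeq's (GRCm38.p6), read 5′ to 3′ on the strand of the gene and ending just before the start of the transcript.
Cyp1a1, chr9:57697363-57697612, plus strand: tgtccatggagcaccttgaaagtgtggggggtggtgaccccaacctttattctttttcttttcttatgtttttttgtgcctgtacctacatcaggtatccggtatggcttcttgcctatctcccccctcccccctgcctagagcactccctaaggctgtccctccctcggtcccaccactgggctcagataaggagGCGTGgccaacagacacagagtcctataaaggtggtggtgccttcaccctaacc
Cyp1b1, chr17:79715062-79715311, minus strand: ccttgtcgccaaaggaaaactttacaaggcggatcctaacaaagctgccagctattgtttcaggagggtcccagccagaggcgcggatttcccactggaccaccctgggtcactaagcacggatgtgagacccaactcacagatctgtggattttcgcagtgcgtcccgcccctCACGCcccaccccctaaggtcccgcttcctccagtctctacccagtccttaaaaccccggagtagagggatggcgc
Ahrr, chr13:74292332-74292581, minus strand: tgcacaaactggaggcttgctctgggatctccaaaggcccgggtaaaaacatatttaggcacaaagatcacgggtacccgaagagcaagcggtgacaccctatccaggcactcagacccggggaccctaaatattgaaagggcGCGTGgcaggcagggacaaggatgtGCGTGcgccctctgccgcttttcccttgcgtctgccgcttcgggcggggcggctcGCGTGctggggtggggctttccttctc
Tiparp, chr3:65528197-65528409, plus strand: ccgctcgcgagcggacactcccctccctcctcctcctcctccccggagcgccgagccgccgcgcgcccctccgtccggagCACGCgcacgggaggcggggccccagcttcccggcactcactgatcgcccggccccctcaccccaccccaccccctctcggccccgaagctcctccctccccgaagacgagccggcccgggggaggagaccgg

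Ahrr held 3 cores in this stretch and the other 3 printed promoters held 1 each. Over windows from 250 bases before the start to 50 after it, 5 of the 6 genes with an entry had at least 1 core, and 32.4% of all 32817 RefSeq promoter windows had one, so the letters by themselves are common. Arnt2 had none and Arnt had 1. Ahr had no entry. A match is a description of the letters and shows no binding. Letters more than 250 bases before the start were not searched, so cores farther away are not counted.

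All 7 genes are protein coding. On GRCm38, Ahr lies at chr12:35497974-35535038 (minus strand), Arnt at chr3:95434388-95497240 (plus), Arnt2 at chr7:84246278-84410176 (minus) and Ahrr at chr13:74211118-74292331 (minus). Cyp1a1 lies at chr9:57697613-57703822 (plus), Cyp1b1 at chr17:79706953-79715041 (minus) and Tiparp at chr3:65528410-65555518 (plus). Ahr, Ahrr, Cyp1a1 and Cyp1b1 overlap no other annotated gene. Arnt, Arnt2 and Tiparp overlap noncoding genes with at most 36, 11 and 22 counts in any library. These are small beside the cortex counts of the 3 genes but not beside their blood counts, where reads shared with these genes are uncertain.

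Cortex libraries held 22301409 to 33804371 counts on genes. Blood libraries held 13595647 to 21895536, and in 11 of them globin transcripts took 66.2 to 76.8% of all counts. The remaining blood library, control female replicate 2, stood apart with 50.1% globin (95% Wilson interval 50.07 to 50.11%), 22461 detected genes against 13254 to 17273 in the others, and 42424 counts of the collagen gene Col3a1, a fibroblast transcript that reached at most 243 elsewhere in blood. It was left out of the blood comparisons, and values with it are given beside the results it changes. The cortical markers Tbr1 and Neurod6 were detected in all 12 cortex libraries, and the blood markers took 689584 to 788713 CPM (counts scaled to a common library total) of the other blood libraries.

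In cortex 6 of the 7 genes could be judged, and in blood only Arnt and Tiparp. A gene was taken as too low to judge where any library had 0 counts or the median was under 10 counts. By that rule Cyp1a1 in cortex (median 9.5 counts) and Ahr, Arnt2, Ahrr, Cyp1a1 and Cyp1b1 in blood were too low. Blood Ahr missed by its median of 6 counts, and the other 4 had 0 counts in 4 to 11 of the 11 blood libraries.

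Arnt2, the partner known as the neural form, was by far the most abundant of the 7 in cortex. Per kilobase of exon its level was 26.1 ± 1.09 TMM-scaled CPM (SD, n = 12; TMM is edgeR's normalization), followed by Tiparp at 6.56 ± 0.428, Arnt at 3.21 ± 0.428, Ahr at 3.09 ± 0.203, Cyp1b1 at 1.46 ± 0.244, Ahrr at 0.213 ± 0.0427 and Cyp1a1 at 0.132 ± 0.0714. Arnt was above Ahr in 6 of 12 libraries, so the order of these neighbours was not set, and the ranges of Ahrr and Cyp1a1 overlapped. Every other pair of neighbours was ordered alike in all 12 cortex libraries with no overlap between their ranges. These levels assume all annotated exons are used.

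In the other 11 blood libraries the order was different. Arnt led with 0.320 ± 0.0732 TMM-scaled CPM per kilobase, above Tiparp (0.175 ± 0.0972) in 11 of 11 libraries, although their ranges overlapped. Ahr was at 0.0528 ± 0.0252 and Arnt2 at 0.0504 ± 0.101, and Arnt2 exceeded Ahr in 2 libraries only. Cyp1b1 and Ahrr lay below these, and Cyp1a1 was at 0 in every library.

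None of the 7 genes was called between nPM and control cortex. Of the 7, 0 passed at an adjusted p under 0.05 by edgeR's quasi-likelihood test with sex and RNA integrity (RIN) as covariates, where 0.0144% of the 20857 genes tested were called. At the second cutoff used by the study, an unadjusted p under 0.005, the count was 0 of 7 against 0.614% of genes. None had an unadjusted p under 0.05, which 5.67% of all genes had. The tests by limma voom and DESeq2 called 0 as well. The median log2 fold change of the 7 (nPM minus control) was -0.02, beside -0.0024 over all genes. P-values here measure the spread between these neonates. The dams were exposed, and the sources do not tell whether males and females of an exposure shared litters. The neonates may therefore not be independent.

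**Figure D1:**
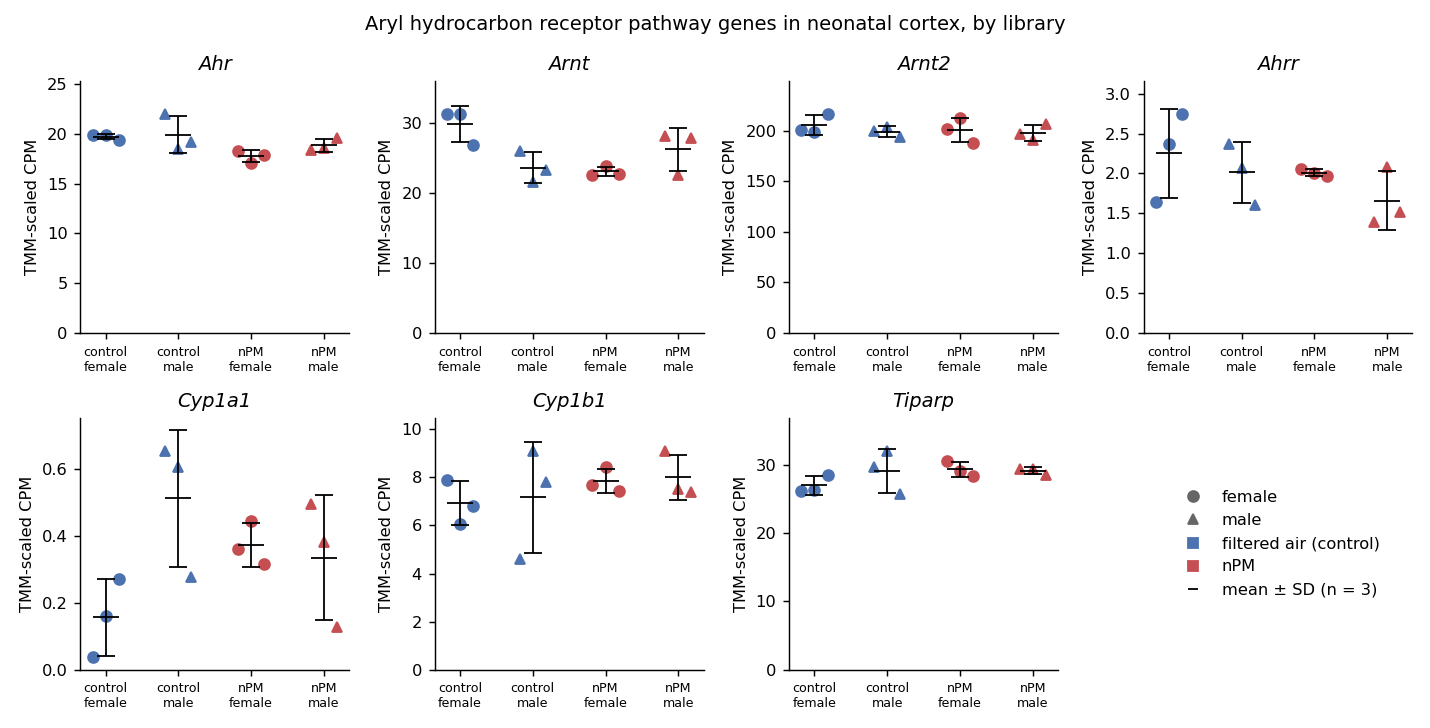
TMM-scaled CPM of each gene (y axis, from 0) in the 12 cortex libraries, by exposure and sex (x axis), with points for libraries and bars for the mean ± SD of 3. The exposures overlap for every gene, the control females stand above the nPM females for Arnt, and Cyp1a1 stays under 0.7 CPM throughout.

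Ahr, the receptor itself, came nearest to a difference. Control cortex ranged from 18.5 to 22.0 TMM-scaled CPM with a median of 19.6, and nPM cortex from 17.1 to 19.6 with a median of 18.3. The nPM libraries thus lay at the low side, with 4 of 6 below every control, but the groups overlapped. The log2 fold change was -0.11 (SE 0.058, 95% interval -0.24 to 0.01) with an adjusted p of 0.86. The mean difference of -1.49 CPM had a two-sided exact permutation p of 0.0216, which was 0.281 after Benjamini-Hochberg adjustment over 13 such tests. Both sequencing lanes showed the sign, with -0.13 in lane 2 and -0.07 in lane 3.

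Of the dimer partners, Arnt2 was the most steady. It held 194 to 217 TMM-scaled CPM in control and 188 to 213 in nPM cortex, with medians of 200.2 and 199. Its log2 fold change of -0.02 had a 95% interval from -0.11 to 0.07. Arnt, the general partner that also serves hypoxia signalling, had -0.11 (interval -0.30 to 0.07), and its exposures overlapped fully.

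Among the genes that AHR induces, neither the monooxygenases nor the feedback genes were higher in nPM cortex by the test. Cyp1b1 ranged from 4.59 to 9.11 TMM-scaled CPM in control (median 7.30) and from 7.40 to 9.08 in nPM cortex (median 7.60). Its log2 fold change was 0.16, with a 95% interval from -0.13 to 0.45. It was 0.057 without control male replicate 1 and 0.28 without control male replicate 2 (unadjusted p = 0.0447, adjusted p = 0.65). The lowest level belonged to control male replicate 1, a library that also had the lowest summed choroid plexus markers (30.5 CPM) and endothelial markers (104 CPM) of the 12. Tiparp, an ADP-ribosyltransferase, had 25.6 to 32.0 in control and 28.4 to 30.5 in nPM cortex, a log2 fold change of 0.07 (interval -0.05 to 0.18). Ahrr had 1.60 to 2.75 in control and 1.39 to 2.08 in nPM cortex, a log2 fold change of -0.20 (interval -0.55 to 0.15).

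Cyp1a1, the most used marker of AHR activation, was too low in cortex to judge. The control females had 1, 5 and 8 counts, the control males 18, 19 and 9, the nPM females 9, 12 and 10, and the nPM males 15, 13 and 4. The exposures overlapped, since both the lowest and the highest libraries were controls. The log2 fold change was 0.23 with a 95% interval from -0.72 to 1.19, which spans both a fall and a rise. Without control female replicate 1, the library with 1 count, the value was -0.11. The liver form Cyp1a2 had 0 counts in all 24 libraries, which allows up to 3 counts in each.

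The effect of nPM in females and males was compared in the interaction of exposure and sex. At an adjusted p under 0.05, 0 of 7 genes and 0% of all 20857 genes were called in cortex. At an unadjusted p under 0.005, 1 of 7 was counted, against 1.35% of all genes, and that was Arnt. Arnt was at 31.3, 31.3 and 26.9 TMM-scaled CPM in control females and at 22.8, 22.6 and 23.9 in nPM females. Control males had 26.0, 21.6 and 23.3, and nPM males 28.2, 22.6 and 27.9. Every control female was above every nPM female, whereas the males overlapped and leaned the other way. The share of all cortex genes that separate in this way in females was not counted.

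The interaction of Arnt was 0.48 on the log2 scale (SE 0.14, 95% interval 0.18 to 0.78, unadjusted p = 0.00434), and with an adjusted p of 0.36 it failed the correction. In females the log2 fold change was -0.35 (interval -0.56 to -0.14) and in males 0.13 (interval -0.08 to 0.34). A two-sided exact permutation test of 3 against 3 cannot go below 0.1. Keeping genes with at least 1 count in any library, in place of every library, brought the adjusted p to 0.0399. How many of all genes were called under that filter is not reported here. Leaving out 1 library at a time kept the unadjusted p between 0.000329 and 0.0248. Cyp1a1 had the largest interaction by size, -1.72 with a 95% interval from -3.58 to 0.14, at counts too low to judge. The other 5 ranged within intervals that held 0.

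**Figure D2:**
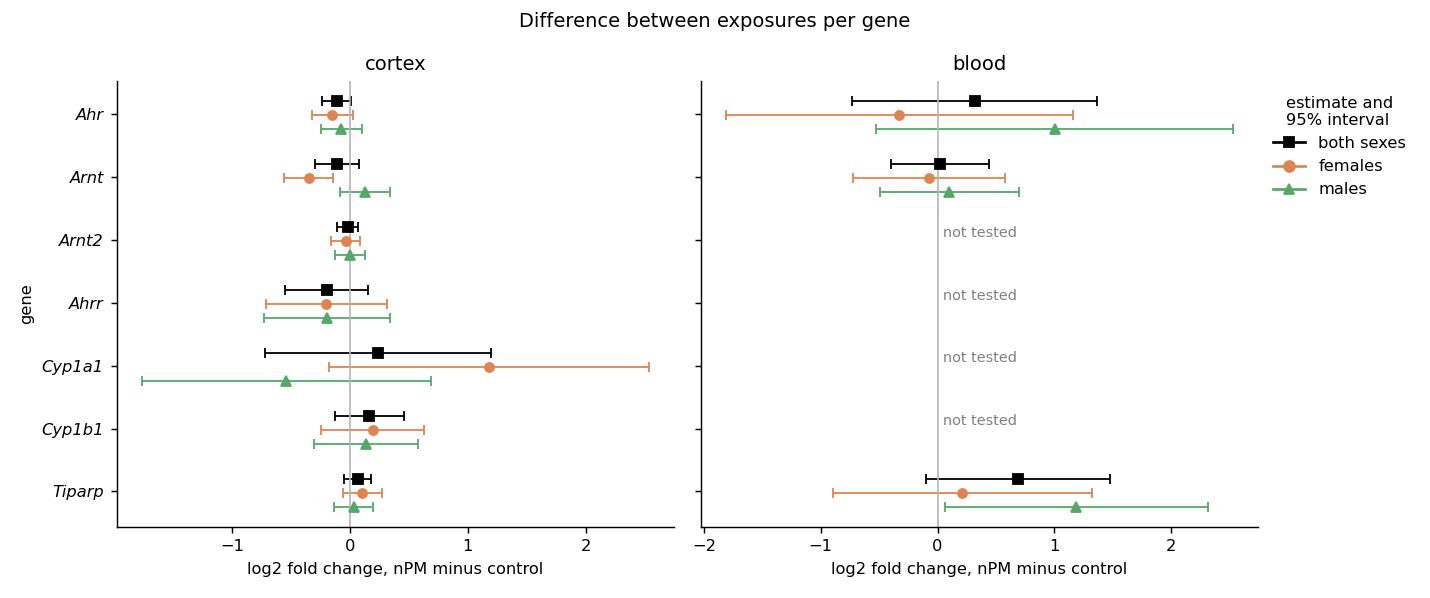
Log2 fold change of nPM minus control (x axis) with its 95% interval for each gene (y axis), in both sexes together and in females and males, in cortex (left) and blood (right). The cortex intervals cross 0 for every gene in both sexes together, Arnt in females lies at -0.35, and 4 genes had too few blood counts to be tested.

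Between the sexes no gene was called in cortex. The test called 0 of 7 between males and females, against 0.0336% of genes at an adjusted p under 0.05 and 0 of 7 against 0.518% at an unadjusted p under 0.005. None reached an unadjusted p under 0.05, which 6.09% of all genes reached.

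In blood, 3 of the 7 genes had counts in every library and could enter the test, 0 were called, and 0% of the 9977 genes tested were called. At an unadjusted p under 0.005 it was 0 of 3 against 0.170% of genes, and none was under 0.05, where 3.11% of genes were. A count of 0 by limma voom and by DESeq2 stood beside it. The interaction with sex called 0 of 3, against 0% at the adjusted cutoff and 0.902% at the unadjusted one. None of the 3 was under 0.05 in it, where 10.7% of genes were. Males against females called 0 of 3, against 0% and 0.351%. At an unadjusted p under 0.05 it was 1 of 3 (Tiparp), against 4.54% of genes. In whole blood, as in dissected cortex, fewer cells of a type and less RNA per cell cannot be told apart.

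Tiparp was the blood target gene that could be judged. The 2 control females kept in the comparison had 10 and 29 counts and the control males 12, 2 and 6. The nPM females had 11, 36 and 18 counts and the nPM males 15, 17 and 15. The nPM libraries lay in the upper part, but the groups overlapped, and 1 of 6 was above all controls on the TMM scale. Within males all 3 nPM libraries (0.765 to 0.795 TMM-scaled CPM) were above all 3 controls (0.141 to 0.536), while the females overlapped. A two-sided exact permutation test of 3 against 3 cannot go below 0.1 even with such a separation. The share of all blood genes that separate in this way was not counted. The log2 fold change was 1.19 in males (95% interval 0.06 to 2.32, unadjusted p = 0.0399, adjusted p = 0.94) and 0.21 in females (interval -0.90 to 1.32), and their difference of 0.98 had an interval from -0.64 to 2.59. In both sexes together the log2 fold change was 0.69 (SE 0.38, 95% interval -0.10 to 1.48, adjusted p = 1.00). It was 0.45 without nPM female replicate 2 and 0.43 without control male replicate 2, and 0.31 with all 12 blood libraries.

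Tiparp was also the lower in male blood, by a log2 difference of -0.97 (95% interval -1.85 to -0.09), which failed the correction (unadjusted p = 0.0328, adjusted p = 1.00). Without nPM female replicate 2 the difference was -0.34 and its unadjusted p 0.703. Without control female replicate 3 it was -0.74 with an unadjusted p of 0.122.

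Arnt in blood showed no difference that these counts could resolve. Control libraries had 37 to 63 counts and nPM libraries 36 to 70. The log2 fold change of 0.02 had a 95% interval from -0.40 to 0.44.

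**Figure D3:**
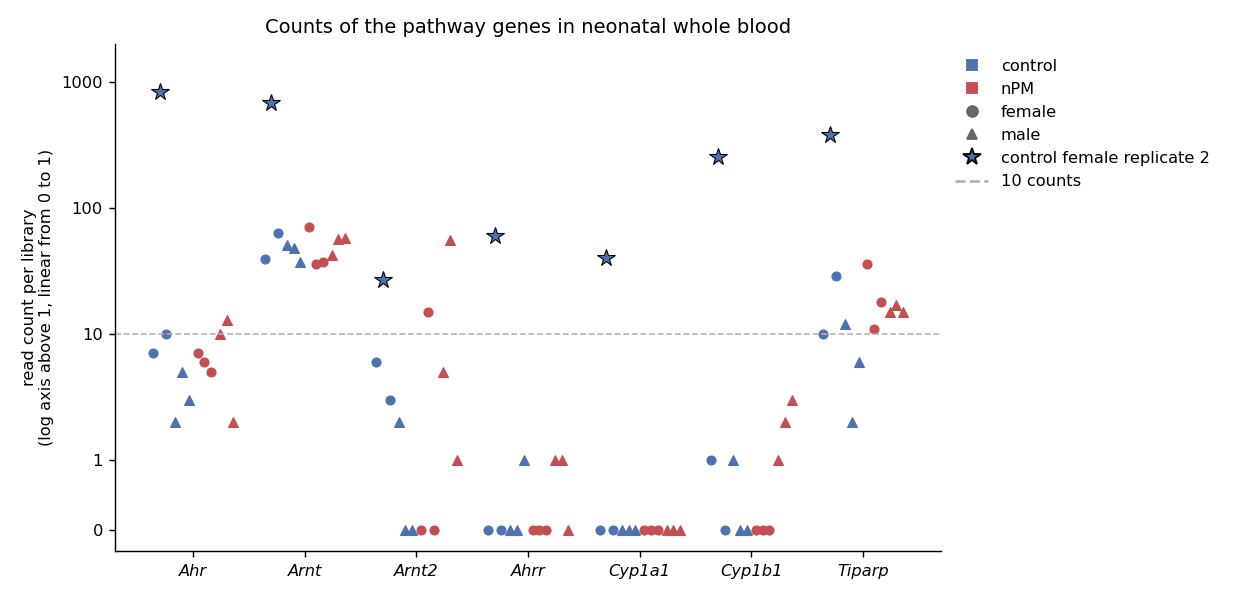
Read counts (y axis, log above 1 and linear from 0 to 1) of each gene (x axis) in the 12 blood libraries, coloured by exposure with symbols for sex and a star for control female replicate 2. Apart from the star, only Arnt and Tiparp have most points above the dashed line at 10 counts, and Cyp1a1 is at 0 everywhere but the star.

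Ahr was barely detected in blood. The 2 control females had 7 and 10 counts, the control males 2, 5 and 3, the nPM females 6, 7 and 5, and the nPM males 10, 13 and 2. The fitted log2 fold change was 0.32, with a 95% interval from -0.73 to 1.37. Adding control female replicate 2, which had 837 counts of Ahr, turned the value to -1.08 with an unadjusted p of 0.28.

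Arnt2 in blood came from a few libraries. It had 56 counts in nPM male replicate 2, 15 in nPM female replicate 1 and 0 to 6 in the other 9. The neuronal transcripts Stmn2 and Snap25 were at 70 and 81 counts in the library with 56, and at 26 and 10 in the library with 15. In all 4 blood libraries without Arnt2 both neuronal transcripts were at 0, and in 6 of the 7 with Arnt2 at least 1 of them was above 0. The part of these transcripts in the Arnt2 counts was not tested.

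Ahrr and both monooxygenases were at the floor in blood. Ahrr had 1 count in 3 libraries and 0 in the other 8. Cyp1b1 had at most 3 counts, and Cyp1a1 had 0 in 11 of 11 libraries, which allows up to 3 counts in each. A response of these genes was not detectable at this depth.

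Control female replicate 2 was the exception for 6 of the 7 genes. Its plain CPM was 39.5 for Ahr, 32.1 for Arnt, 2.83 for Ahrr, 1.89 for Cyp1a1, 11.996 for Cyp1b1 and 17.8 for Tiparp. The highest of the other 11 were 0.705 for Ahr, 3.60 for Arnt, 0.0736 for Ahrr, 0 for Cyp1a1, 0.155 for Cyp1b1 and 1.85 for Tiparp. Arnt2 did not stand above the others there, with 1.28 CPM against up to 3.04. Its fibroblast markers Col1a1 and Dcn, at 20564 and 4681 counts, stood beside at most 309 and 24 in the other blood libraries. Vessel markers were high there too, with 1005 counts of Notch3 and 317 of Pdgfrb (mural cells) against at most 14 and 5, and 184 of Cdh5 (endothelium) against at most 6. The part of fibroblasts and vessel cells in the AHR genes was not tested.

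Control cortex and control blood were then set side by side for where the pathway is expressed. RIN was 9.4 to 9.9 over the cortex libraries and 7.5 to 9.3 over the 11 blood libraries. Lane 1 held only blood and lane 2 only cortex, while lane 3 held both. Neither RIN nor lane was a term of this fit, so they cannot be fully told apart from tissue in it. Of the 7 genes, 6 were called between tissues, where 67.9% of 22174 genes were called. Arnt2, Ahrr, Cyp1b1 and Cyp1a1 had 0 counts in some control blood libraries and entered the test through cortex alone. That entry favours a higher value in cortex, so the calls of Arnt2, Ahrr and Cyp1b1 are given as description. Globin fills most of a blood library, so the scaling sets the zero of this comparison. With TMM the median gene was 1.30 higher in cortex on the log2 scale, and with library totals alone 5.16 higher. The genes are therefore given relative to that median gene.

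Arnt2 stood 5.18 above the median gene under TMM and 5.54 above it with library totals. Cyp1b1 stood 2.78 and 2.91 above, Ahrr 2.02 and 1.91, and Ahr 0.54 and 0.92. Tiparp was at the median gene, -0.05 under TMM and 0.33 with library totals. Arnt was below the median gene in both, at -2.20 and -1.79. As an absolute difference Arnt flipped with the scaling, at -0.90 (95% interval -1.21 to -0.59) under TMM and 3.37 with library totals, so its direction between the tissues was not set by these data.

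**Figure D4:**
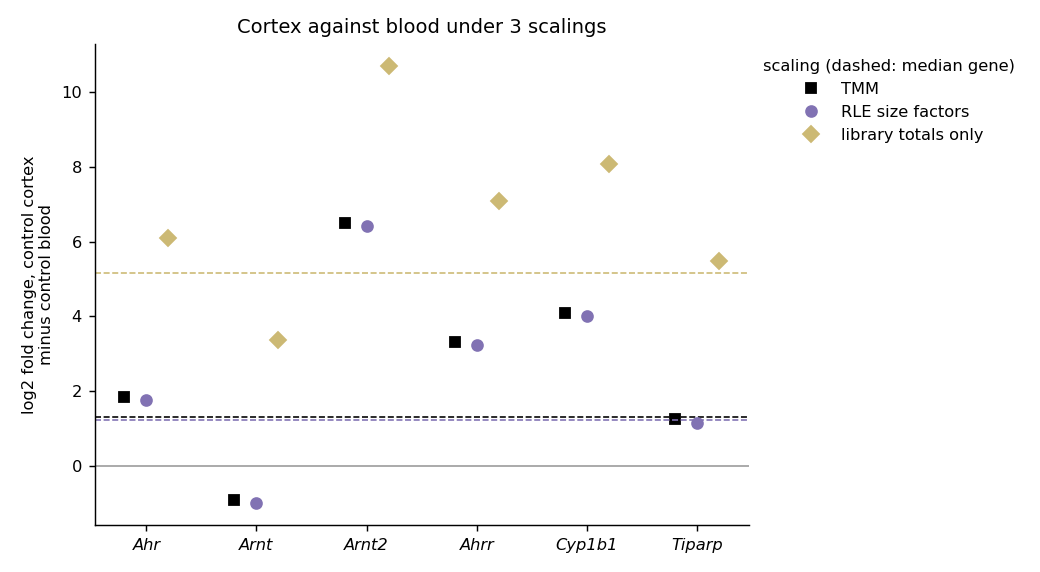
Log2 fold change of control cortex minus control blood (y axis) for 6 genes (x axis) under TMM, RLE size factors and library totals, with dashed lines at the median gene of each scaling. Arnt lies below the dashed line and Arnt2, Cyp1b1, Ahrr and Ahr above it in all 3, while Arnt changes side of 0.

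The counts behind these values were uneven. Over the control libraries Arnt2 had 36053 counts in cortex and 11 in blood, a ratio of CPM of 1730 (95% Poisson interval 967 to 3467, counting error only). Ahr had 3522 and 27 counts, a ratio of 68.9 (47.3 to 104.7). Ahrr had 1 blood count and Cyp1b1 had 2, so that their ratios of 201 and 333 carry intervals from 35.8 to 7945 and from 92.1 to 2756. Cyp1a1 had 60 counts in cortex and 0 in blood. It was at least 10.6-fold higher in CPM in cortex, against a limit of 3 counts over the blood group. The lower bound of its 95% Poisson interval, which counts the error of both tissues, was 8.33-fold. All these CPM ratios use library totals, where the median gene was 5.16 higher in cortex on the log2 scale. Both limits of Cyp1a1 lie below that median gene, so they show no excess over the typical gene. With control female replicate 2 included the test called 3 of the 7 instead of 6, and the log2 difference fell to 0.40 for Ahr and 0.65 for Cyp1b1. The share of all genes called in that fit is not reported here.

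Ratios within a library need no scaling between tissues, and were added after seeing the dependence above. Per kilobase, the ratio of Arnt2 to Arnt was 8.02 ± 1.24 (SD, n = 6) in control cortex and 0.0501 ± 0.0656 (SD, n = 5) in control blood. The ratio of Ahr to Arnt was 0.977 ± 0.134 in control cortex and 0.146 ± 0.0742 in control blood. With control female replicate 2 left out, neither ratio overlapped between tissues. Each had a two-sided exact permutation p of 0.00433, the smallest that 6 against 5 can give. The ratios were picked with the tissue differences known, and most genes differed between the tissues. The share of gene pairs that separate in this way was not counted, so the separation is given as description. Control female replicate 2 had 1.60 for Ahr to Arnt, above the highest control cortex library (1.11), and 0.0414 for Arnt2 to Arnt. Ahr and Arnt2 were too low to judge in blood, so the blood ratios rest on few counts. The nPM libraries gave 8.48 ± 0.832 and 0.266 ± 0.406 for Arnt2 to Arnt, and 0.971 ± 0.0865 and 0.195 ± 0.101 for Ahr to Arnt. In both exposures Arnt2 was the main partner transcript in cortex. In control blood it was Arnt, whereas among the nPM blood libraries the highest Arnt2 to Arnt ratio was 1.02.

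The rest of the pathway was followed through 4 lists, and none of their genes was called between exposures in either tissue. The chaperones of the receptor complex (4 of 4 tested) had a median log2 fold change of 0.04 in cortex and 0.03 in blood. The other Ah battery enzymes, the detoxifying genes known to follow AHR, had 4 of 8 tested in cortex with a median of -0.15 and 2 of 8 in blood with 0.11. Partners and relatives with the same bHLH-PAS fold had 13 of 15 tested in cortex with -0.06 and 6 of 15 in blood with 0.15. Tryptophan enzymes that lead to AHR ligands had 9 of 10 tested in cortex with -0.15 and 4 of 10 in blood with -0.59. The median over all genes was -0.0024 in cortex and 0.0025 in blood.

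The smallest p of each list in cortex belonged to Ptges3 (p23, log2 fold change 0.09), Aldh3a1 (-0.20), Npas2 (-0.11) and Ido2 (-0.23), and no list gene in cortex had an unadjusted p under 0.05. In blood they were Hsp90ab1 (0.11), Xdh (0.14), Epas1 (1.04) and Kmo. Kmo (kynurenine 3-monooxygenase) had -1.08 (unadjusted p = 0.0135) and Kynu (kynureninase) -1.18 (unadjusted p = 0.0406), and both failed the correction with an adjusted p of 1.00. Of all genes tested in blood, 3.11% had an unadjusted p under 0.05. Kmo had 27 counts or fewer and Kynu 10 or fewer in any blood library kept.

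In the cortex interaction of exposure and sex, an unadjusted p under 0.05 was reached by 9.68% of all genes. All 4 chaperones had a negative value and 3 reached that cutoff. Among these, Ptges3 had -0.22 (unadjusted p = 0.0087) and Hsp90ab1 -0.21 (unadjusted p = 0.0258). Their adjusted p was 0.40 and 0.47, so neither was called. Il4i1, an enzyme that makes AHR ligands from tryptophan, had 1.38 (unadjusted p = 0.0142, adjusted p = 0.41). Nqo1 and Hif3a had the smallest p of the battery enzymes and of the relatives, with -0.24 and 0.53 and unadjusted p over 0.05.

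In blood the interaction passed an unadjusted 0.05 for 2 chaperones, 1 battery enzyme and 2 relatives, where 10.7% of all genes passed it. Among them were Ptges3 (0.98), Nqo1 (-1.05), Hif1a (1.24) and Clock (1.67), and the adjusted p of these named genes was at least 0.45. Ptges3 did not stand for its list, as 1 chaperone was higher and 3 were lower, with a median of -0.26. Kynu had the smallest p of the tryptophan enzymes, with -1.37. Markers of blood cell types were read in the same interaction. All 4 platelet markers had a negative value, from -0.98 to -1.80, all under an unadjusted 0.05. All 5 neutrophil and all 5 lymphocyte markers had a positive one, with medians of 0.93 and 0.97, and 2 of each list were under an unadjusted 0.05, namely S100a8 (0.95), Camp (0.99), Cd3e (1.93) and Cd3g (1.43). The adjusted p of these markers was at least 0.45, and their part in the values above was not tested.

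Between control tissues the lists were split. Relative to the blood libraries Npas1, a neuronal relative, had 1669 counts in cortex and 0 in blood, at least 294-fold higher in CPM. Tdo2, which opens the kynurenine route, had 355 and 0, at least 62.5-fold higher. Xdh and Kmo were the reverse under both scalings, with ratios of CPM of cortex to blood of 0.159 and 0.0853 and TMM log2 differences of -6.91 and -7.71. Ptges3 (1.12 under TMM) and Aldh3a1 (2.55) had the highest differences of their lists, that of Ptges3 being below the 1.30 of the median gene. Aldh3a1 had 1 count over the control blood libraries. Like Npas1 and Tdo2, it entered the test through cortex alone. That entry favours a higher value in cortex, so the values of these genes are given as description. Ncoa2 flipped with the scaling, at -2.34 under TMM but with a CPM ratio of 3.76.

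Across the 12 cortex libraries the genes varied differently. Of 33 relations computed among 6 of the genes (Cyp1a1 left out) and with markers of vessel and meningeal cells, 5 passed a Benjamini-Hochberg adjusted p of 0.05 by Pearson's r and 0 by Spearman's rho. The strongest tied Cyp1b1 to the mean of 5 mural cell markers (pericytes and smooth muscle). Its r was 0.899 (permutation p = 0.0008, adjusted 0.0257) and its rho 0.818 (permutation p = 0.0018, adjusted 0.0594). Without the 2 libraries farthest from the median of the markers r was 0.615, and among the 8 libraries of lane 2 it was 0.953, while lane 3 held only 4.

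**Figure D5:**
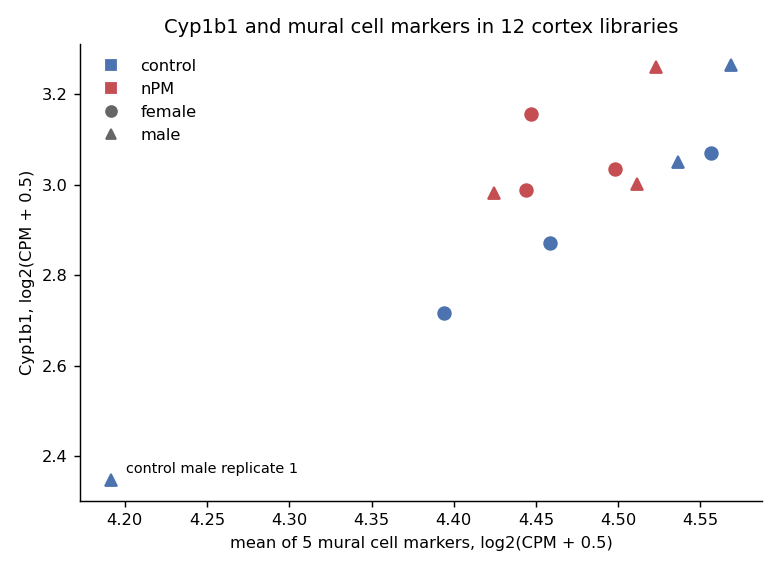
Cyp1b1 (y axis) against the mean of 5 mural cell markers (x axis), both as log2(CPM + 0.5), in 12 cortex libraries coloured by exposure with symbols for sex. Control male replicate 1 lies alone at the lower left, and r is 0.899 with it and 0.702 without it.

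The calls by r depended on control male replicate 1. Without it, chosen after seeing the data, 0 of 33 relations passed. The r of Cyp1b1 with the mural markers was then 0.702 (permutation p = 0.0144, adjusted 0.32) and the rho 0.764 (permutation p = 0.0083, adjusted 0.27). Ahr ran against Cyp1b1 with r of -0.791 (rho -0.552, permutation p = 0.0039 and 0.066, adjusted 0.0257 and 0.298), and r was -0.495 without the 2 farthest libraries and -0.526 without control male replicate 1. Endothelial markers had r of 0.842 with Cyp1b1 and -0.776 with Ahr, and fibroblast markers 0.774 with Cyp1b1, all 3 with a permutation p of 0.0034 to 0.0037 and an adjusted 0.0257. Their rho was 0.727, -0.608 and 0.566, and r fell to 0.490, -0.270 and 0.248 without the 2 farthest libraries.

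The genes with the most similar profile over the 12 cortex libraries were, as a description, Aldh1a2 for Cyp1b1 (r = 0.929), Ncl for Tiparp (0.944), Zkscan3 for Arnt (0.937), Smim27 for Arnt2 (0.913), Wnt3 for Ahrr (0.880) and 2810032G03Rik for Ahr (0.872). The runners-up were Ska3, Trove2, 2010111I01Rik, Armcx4, Gm44645 and Medag. These are the highest r of 16660 genes with at least 10 counts in every library. In blood only Arnt had enough counts, with Zbtb37 (r = 0.858) and Cep89 (0.838) highest of 5548 genes over 11 libraries.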

How the data were processed

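Ribosome-depleted RNA (RiboZero Gold) of 12 cortex and 12 blood samples was sequenced by Illumina HiSeq. HISAT2 was the authors' aligner (build mm10), and featureCounts (1.5.0-p3, per the submitters' processing notes) assigned reads to genes of Gencode M11. Whether strand was used in the counting is not given in the sources used here. The deposited table holds raw counts per gene. The authors' gene table also has an RPKM column, a mean over all libraries, which was not used. Control female blood replicate 2 was taken as the sample the study left out, since earlier analysis of these data matched it through the study's blood table and its profile stood apart.

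Tests were edgeR's quasi-likelihood F test (edgeR 4.0.16, R 4.3.3, two-sided) with TMM scaling, fitted on genes that no library of the fit had at 0 (for the tissues, no library of at least 1 tissue), with Benjamini-Hochberg adjustment over all genes. Exposure, sex and RIN were terms, the interaction was added in a second model, and the tissue fit had tissue and sex. Exact permutation tests used TMM-scaled CPM. Correlations used log2(CPM + 0.5) and 100000 permutations. Alternatives were limma voom (3.58.1), DESeq2 (1.42.0), RLE scaling, 3 other filters (a count in any library, 10 counts in each library, filterByExpr), no RIN, lane as a term, each library left out, globin genes left out, RIN added, nPM libraries and lane 3 only for the tissues, and all 12 blood libraries. Counts were also simulated with changes of 2-fold, placed only in genes with a mean of at least 10 counts. At an unadjusted p under 0.005, 187 of 199 changed genes were recovered in cortex nPM (20357 genes). It was 113 of 198 in blood nPM (9553 genes) and 180 of 200 between tissues (21105 genes). Recovery of smaller changes, or of genes with fewer counts, was not simulated.

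The 7 genes and all lists were chosen with earlier results of these data known. Named genes were the 7 members, the gene with the smallest p in each list and any list gene with an unadjusted p under 0.05, the largest rise and fall of each list between tissues, and the 2 genes most like each member. The results of some genes that this rule names are not reported here. Promoter sequences were RefSeq's, with 6 of 7 genes matched by symbol. Intervals of counts and limits set by 0 counts (3 counts) cover counting error only.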

Additional observations from a re-analysis of the deposited data

Results flagged for a closer look

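In blood 3 values lay far from the others of their exposure by Dixon's criterion at the 95% level, among 26 groups tested. Chance flags about 1 in 20 groups of normally distributed values, a rate that may not hold for counts near 0. Ahrr in control male replicate 3 had 0.0785 TMM-scaled CPM, which is 1 count, while the other 4 controls had 0. With those at 0, any count in 1 library meets the criterion, so this flag carries no information. Arnt2 in nPM male replicate 2 had 2.62 (56 counts) against 0.7997 in the next library, and this library also held the most Stmn2 and Snap25 counts of the 11. Tiparp in nPM female replicate 2 had 1.82 (36 counts) against 0.886 in the next.

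The effect of nPM on Arnt in cortex differed between the sexes by 0.48 on the log2 scale, which failed the correction (unadjusted p = 0.00434, adjusted p = 0.36). All 12 fits that left out 1 library kept the direction and an unadjusted p under 0.05, and 3 of them kept it under 0.005.

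Control female replicate 2 of blood, which was left out of the main blood comparisons, held 39.5 CPM of Ahr, 2.83 of Ahrr, 32.1 of Arnt, 1.89 of Cyp1a1, 11.996 of Cyp1b1 and 17.8 of Tiparp, each above all 11 other blood libraries. The fibroblast and vessel markers that moved with these values are given with them in the results, and their part was not tested.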

How the results depend on the processing

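Of the 7 genes, 0 were called between exposures or sexes in every setting tried, with 1 exception. With genes of at least 1 count in any library, 1 was called in the cortex interaction (Arnt). The shares of all genes called in that setting and in the tissue alternatives below are not reported here. Between tissues 6 were called, 6 when any library was left out, 3 with control female replicate 2 included and 0 with at least 10 counts in every library, where 1 gene was testable. With library totals alone, added after seeing the data, Arnt was 3.37, and Cyp1a1 was -2.50 with control female replicate 2 and -0.87 by limma voom. Ahrr between tissues was 8.30 without control male blood replicate 3, the only control blood library with a count, and 2.78 to 3.42 without any other. Of the relations across cortex libraries, 5 passed, 3 on plain CPM and 0 without control male replicate 1.

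Values near 0 changed sign in some settings. With no RIN, Arnt was -0.012 for blood nPM, -0.23 for the blood interaction and 0.21 for blood sex, and Ahrr was -0.10 for the cortex interaction. With all 12 blood libraries Ahr was -1.08 and Arnt -0.13 for blood nPM, and with lane added Ahr was 0.017 for blood sex. With 1 library left out, the values ran from -0.36 to 0.21 (Ahr) and -0.19 to 0.065 (Arnt) for blood sex, -0.067 to 0.46 (Arnt) for the blood interaction and -0.042 to 0.13 (Arnt) for blood nPM. They ran from -0.20 to 0.19 (Ahrr), -0.016 to 0.14 (Arnt2) and -0.35 to 0.11 (Cyp1b1) for the cortex interaction, -0.039 to 0.0037 (Arnt2) and -0.11 to 0.61 (Cyp1a1) for cortex nPM, and -0.040 to 0.021 (Arnt2) and -0.16 to 0.15 (Cyp1b1) for cortex sex. None of these values was called, and the cause was not tested. In the blood interaction, leaving out a control female leaves 1, which is assumed to vary like the other groups.

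No paired analysis was possible because the labels give no replicate number that ties samples of different groups together. A change in blood of the 5 genes too low to judge was not detectable at this depth.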
